A study of Mus musculus with 16 samples.

Results

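The comparison described here set 4 Cdk8 knockout cell lines against 4 control cell lines, all kept for 48 h in 0.01% DMSO, the solvent of the inhibitor Senexin B. It used 8 of the 16 libraries of the study; the other 8 came from the same lines treated with 1 µM Senexin B and enter only where they are named. The lines are leukemic cells made from bone marrow of C57BL/6N mice that was transformed with a retrovirus carrying BCR-ABL1 p185, the fusion kinase of a form of acute lymphoblastic leukemia, so that knockout and control lines share the oncogene. The knockout lines are Cdk8 Δ/Δ Vav-Cre, in which a Cre recombinase driven by the Vav promoter, which is active in blood cells, removed part of Cdk8. The controls are labelled wildtype, and the study's methods describe Cdk8 fl/fl lines. Each line was derived separately, each gave 1 DMSO library, and a replicate number names a line within its genotype. With 4 lines a group, spread between lines is part of every value below.

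The 8 libraries held 13700307 to 17731914 counted reads each, with medians of 16527226 in the controls and 15344007 in the knockouts. Of 50686 gene identifiers, 13174 held enough counts in enough lines to be tested. Levels are given as CPM, counts scaled to library size with TMM factors, and fold changes as log2 of knockout over control, fitted with edgeR. The limit for calling a change was a Benjamini-Hochberg adjusted p under 0.05 together with a fold change over 2. Beside this test, a gene is described as not overlapping when all 4 knockout lines lay on 1 side of all 4 control lines.

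CDK8 is a cyclin-dependent kinase that pairs with cyclin C. With MED12 and MED13 it forms the kinase module of Mediator, the complex that bridges transcription factors and RNA polymerase II. The module can hold back or promote transcription depending on the gene, and CDK19 is a close relative that can take the place of CDK8. The cells in which it was removed here resemble early B-cell precursors, which rearrange their antibody genes with the RAG recombinase and depend in culture on signals that BCR-ABL1 replaces.

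Cdk8 (ENSMUSG00000029635, chromosome 5, 146231230 to 146302874 in GRCm38) was measured at 69.97, 63.1, 64.9 and 67.1 CPM in control lines 1 to 4 and at 35.9, 53.6, 48.1 and 43.96 CPM in knockout lines 1 to 4. Every knockout line lay below every control line, and RNA from the gene remained in all 4. Its log2 fold change was -0.55 (SE 0.14), with an adjusted p of 0.897 in edgeR's test. The counts cover the whole gene and were not split by exon. Where the remaining RNA came from was not tested. Of the 7 genes of the kinase module, 3 were higher, 4 were lower and 0 passed the test, with a median log2 fold change of -0.01. Med13l, which encodes an alternative MED13 subunit, was the other member that did not overlap, at 246 ± 24.1 CPM in controls and 186 ± 22.1 CPM in knockouts (SD, n = 4 lines, here and below). With Cdk8 itself this made 2 of 7 members, beside 3.08% of all tested genes. The paralog Cdk19 stood at 198 ± 62.4 CPM in controls and 163 ± 23.03 CPM in knockouts, and the cyclin gene Ccnc at 49.3 ± 1.78 CPM and 54.9 ± 6.24 CPM. Both overlapped between the genotypes. Of 25 tested genes of core Mediator, 10 were higher and 15 lower, with a median of -0.02, beside a median of 0.0017 over all tested genes.

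The cells carried the markers of early B cells in all 8 libraries. Vpreb1, part of the surrogate light chain of the pre-B receptor, lay between 101 and 132 CPM in controls and between 117 and 152 CPM in knockouts. Of 32 tested genes of pro-B and pre-B identity, 19 were higher, 13 were lower and 0 passed the test, with a median log2 fold change of 0.08 that ran from -0.02 without control line 4 to 0.10 without knockout line 4. The member whose genotypes did not overlap was Cd93, a surface protein of early B cells, with a log2 fold change of -0.66 (SE 0.20). This 1 of 32 is close to the 3.08% of all tested genes. Most markers of other cells were too scarce to test. Enough counts were held by 3 of 18 myeloid markers and 5 of 18 markers of T and NK cells. Of markers of red cells and megakaryocytes 3 of 14 had enough, and of stromal markers 1 of 14. Cd3g, Ncr1, Elane, S100a8, Hba-a2 and Col3a1, picked for this, had no count in any of the 8 libraries. Some tested members were plentiful. Cd2 stood at 92.4 CPM in controls and 84.3 CPM in knockouts on average, Tfrc at 278 and 316 CPM and Pecam1 at 226 and 185 CPM. Hbb-bt ran up to 149 CPM in control line 2 and 208 CPM in knockout line 3. Klf1 was scarce, at 0.618 and 0.553 CPM. Of 6 plasma cell markers 5 were tested, and all 5 were higher in knockouts, with a median log2 fold change of 0.32, from 0.20 without control line 4 to 0.51 without control line 2. Their mean log2(CPM + 1) was 5.22, 5.19, 4.54 and 4.79 in control lines 1 to 4. It was 4.69, 5.04, 6.26 and 5.87 in knockout lines 1 to 4, so knockout lines 1 and 2 lay within the control range. No member was without overlap. In such bulk libraries, fewer cells of a type and less RNA per cell cannot be told apart.

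The summed level of the myeloid markers ran from 11 to 152 CPM in controls and from 9.799 to 91.1 CPM in knockouts. Most of it in line 4 of each genotype came from Fcgr3, an Fc receptor gene, at 136 CPM in control line 4 and 80.5 CPM in knockout line 4. The part of such cells in the results was not tested.

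Few genes separated the genotypes by more than the lines differed among themselves. Of 13174 genes tested with edgeR, 1 was called (0.00759%), and 701 had an unadjusted p under 0.05, of which 314 were higher and 387 lower in knockouts. The called gene was Sva, a secreted protein of the seminal vesicle, with 0 counts in the 4 control lines and 5.76, 5.42, 6.23 and 5.98 CPM in the knockouts, where it rose (adjusted p = 0.0328 in edgeR's test). Leaving out any single line ended the call, with adjusted p from 0.0628 to 0.410 in edgeR's test. The interquartile range of log2 fold changes ran from -0.18 to 0.19, while 387 genes were over 2-fold higher and 250 over 2-fold lower. The genotypes did not overlap for 406 genes, or 3.08% of those tested, 199 with all knockouts higher (1.51%) and 207 with all knockouts lower (1.57%). Of these, 40 were also over 2-fold higher and 23 over 2-fold lower. DESeq2, run on the same 8 libraries, called 32 of 16092 genes (0.199%), 24 higher and 8 lower. Of the 32, 8 did not pass the count filter of the edgeR test, which asks for counts in enough lines. Some of these were high in certain lines, such as Tfpi at 37.1 CPM in control line 1 and 0 in control line 4. Jhy stood at 28.5 CPM in knockout line 3 and 0.190 CPM in knockout line 1. The genes described next were picked for a small p or for lack of overlap, so those values describe them and do not add evidence.

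**Figure D1:**
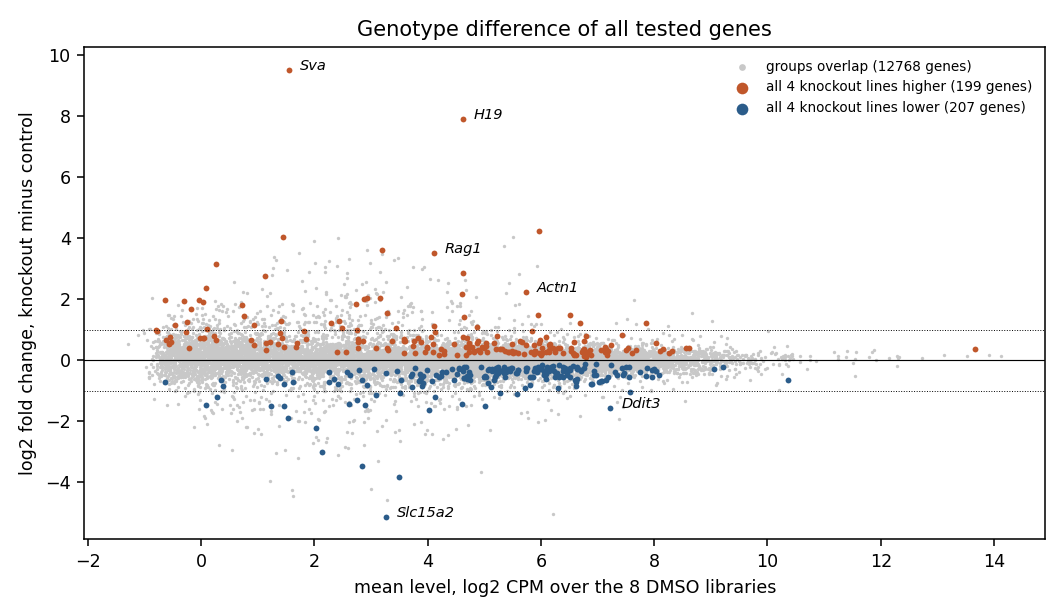
Log2 fold change of knockout over control (vertical axis) against mean level in log2 CPM over the 8 DMSO libraries (horizontal axis) for the 13174 tested genes, each a point. Orange points mark the 199 genes with all 4 knockout lines higher and blue points the 207 with all 4 lower. Dotted lines mark a fold change of 2, and most separated genes lie between them.

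Genes of antibody gene rearrangement were among the higher genes. Rag1 (chromosome 2), a subunit of the RAG recombinase, stood at 2.65, 2.83, 3.96 and 1.64 CPM in control lines and at 18.1, 9.54, 79.5 and 19.4 CPM in knockout lines. Rag2, the other subunit and its neighbour on the chromosome, stood at 0.5296, 2.25, 2.58 and 0.143 CPM in controls and at 8.17, 11.3, 40.3 and 7.87 CPM in knockouts. All 4 knockout lines were above all controls for both genes, and knockout line 3 was far above the rest. The log2 fold change of Rag1 was 3.51 (SE 0.70) and that of Rag2 3.60 (SE 0.93). DESeq2 called both, at adjusted p of 4.29e-05 and 0.00698, whereas edgeR gave an adjusted p of 0.897 for each. Of 10 genes of V(D)J recombination, 7 were higher and 3 lower, 2 did not overlap (both higher, beside 1.51% of all tested genes) and 0 passed edgeR's test, with a median log2 fold change of 0.29, or 0.52 without control line 1 and 0.12 without knockout line 1. Xrcc6, which encodes the Ku70 end-joining factor, lay at 96.98, 86.6, 78.97 and 77.3 CPM in controls and 115, 91.5, 154 and 225 CPM in knockouts. Dntt, the polymerase that adds untemplated bases at the joins, stood at 0.942, 1.41, 10.8 and 38.5 CPM in controls and 287, 1.87, 2.34 and 3.63 CPM in knockouts. For Xrcc6 the groups overlapped, and for Dntt the high values came from knockout line 1 and control lines 3 and 4. Dntt was named after its values were seen.

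Actn1, an actin crosslinker of focal adhesions, stood at 12.6, 16.2, 8.19 and 38.6 CPM in controls and at 51.6, 55.2, 111 and 132 CPM in knockouts, a log2 fold change of 2.21 (SE 0.53). Col27a1, a fibrillar collagen, stood at 8.36, 6.49, 12.6 and 8.29 CPM in controls and 25.1, 24.2, 78.5 and 32.7 CPM in knockouts, a log2 fold change of 2.17 (SE 0.43). The lowest knockout line was above the highest control in each case. Nefh, the heavy neurofilament subunit, stood at 93.2, 40.8, 50.6 and 62.6 CPM in controls and 156, 183, 122 and 117 CPM in knockouts. Tubb6, a beta-tubulin, stood at 2.94, 4.63, 1.32 and 2.72 CPM in controls and 11.8, 5.87, 8.89 and 15.4 CPM in knockouts. Both were separated too, Nefh by 93.2 CPM in control line 1 against 117 CPM in knockout line 4. DESeq2 called Actn1, Col27a1, Nefh and Tubb6, with adjusted p of 0.01195, 0.000937, 0.0193 and 0.0193, and edgeR gave an adjusted p of 0.897 for each. In the list of integrins and focal adhesion, 12 of 22 tested genes were higher and 10 lower, with a median log2 fold change of 0.06, which became -0.18 without knockout line 1. Ptk2, the focal adhesion kinase gene, overlapped, at 26.1 ± 11.6 CPM in controls and 4.86 ± 5.23 CPM in knockouts.

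Guca1a, a calcium-binding activator of guanylate cyclase, stood at 2.77, 2.76, 2.25 and 4.22 CPM in controls and 14.8, 14.8, 11.3 and 7.87 CPM in knockouts, a log2 fold change of 2.02 (SE 0.31). Only Sva and Nradd had a lower adjusted p in edgeR's test than its 0.613. Lpcat4, which re-acylates lysophospholipids, stood at 6.94, 12.02, 18.3 and 18.2 CPM in controls and 27.9, 43, 40.8 and 33.97 CPM in knockouts. Asl, the argininosuccinate lyase of the urea cycle, stood at 15.5, 8.23, 7.86 and 12.3 CPM in controls and 23.5, 28.5, 24.7 and 18.01 CPM in knockouts. Each had all knockout lines above all controls. Car2, a carbonic anhydrase, was the most abundant of the 4, at 86.04, 124, 215 and 129.9 CPM in controls and 332, 266, 436 and 263 CPM in knockouts, also without overlap. DESeq2 called Guca1a, Lpcat4 and Asl, at adjusted p of 1.19e-06, 0.0215 and 0.0425, and gave Car2 an adjusted p of 0.0557, while edgeR gave 0.897 for Lpcat4, Asl and Car2.

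**Figure D2:**
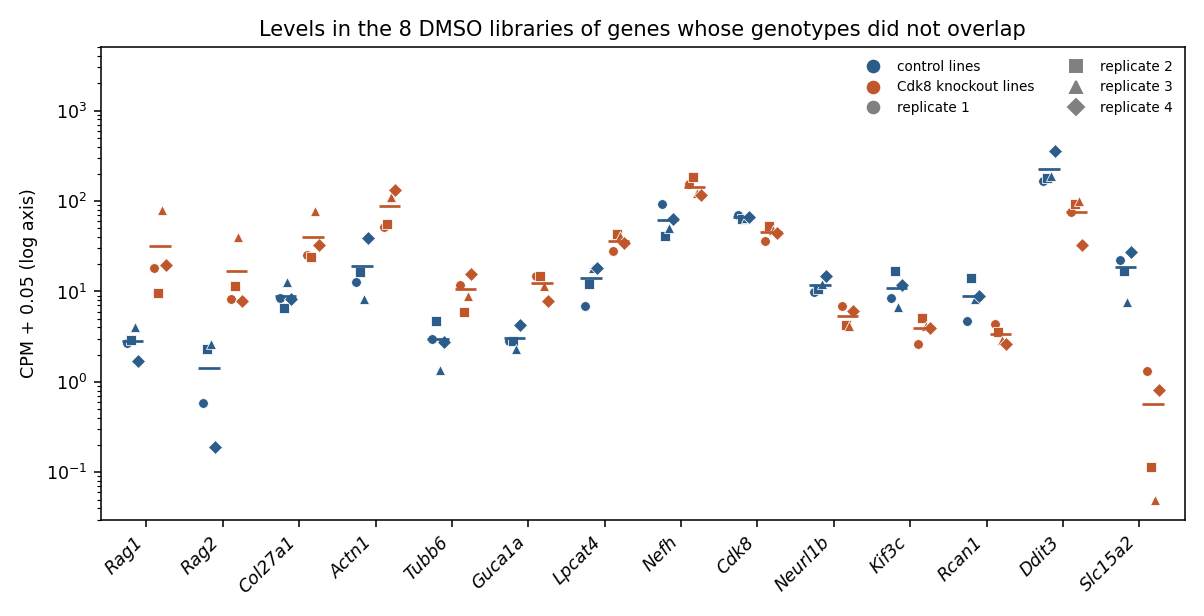
CPM plus 0.05 on a log axis for 14 genes whose genotypes did not overlap, in control lines (blue) and Cdk8 knockout lines (orange). Each point is 1 line, its shape gives the replicate number, and the bar is the mean of 4 lines. Rag1 and Rag2 lie highest in knockout line 3, and Slc15a2 is at or near 0 in 3 knockout lines.

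On the lower side, Slc15a2, a transporter that takes up small peptides, had the lowest log2 fold change of all tested genes. It stood at 22.5, 16.97, 7.64 and 27.5 CPM in control lines and at 1.27, 0.0645, 0 and 0.757 CPM in knockout lines, a log2 fold change of -5.14 (SE 1.05). Knockout line 3 had no read, and the highest knockout line was below the lowest control. In the Senexin B libraries of the same lines Slc15a2 stood at 10.4, 26.9, 12.4 and 39.4 CPM in controls and 1.42, 0, 0 and 0.747 CPM in knockouts, again without overlap. Ddit3, the stress transcription factor CHOP, stood at 165, 178, 189 and 362 CPM in controls and 76.5, 91.5, 100.4 and 32.8 CPM in knockouts, a log2 fold change of -1.57 (SE 0.39). Control line 4 was the highest and knockout line 4 the lowest. Kif3c, a kinesin motor, stood at 8.47, 16.9, 6.65 and 11.8 CPM in controls and 2.597, 5.09, 4.15 and 3.93 CPM in knockouts. Neurl1b, a ubiquitin ligase of the Notch pathway, stood at 9.89, 10.6, 12.1 and 14.7 CPM in controls and 6.91, 4.19, 4.09 and 5.98 CPM in knockouts. DESeq2 called Slc15a2, Ddit3, Kif3c and Neurl1b, at adjusted p of 3.83e-06, 0.0334, 0.0291 and 0.0111, and edgeR's adjusted p was 0.897 or above for the 4. Kcnh1, a potassium channel gene that DESeq2 called, overlapped, since control line 4 held 3.07 CPM and knockout line 3 held 3.76 CPM.

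Rcan1, an inhibitor of calcineurin, stood at 4.71, 14.01, 8.304 and 8.79 CPM in controls and 4.37, 3.48, 2.85 and 2.57 CPM in knockouts. Saraf, which slows calcium entry through store-operated channels, stood at 39.4, 53.4, 43.7 and 73.8 CPM in controls and 32.6, 19.5, 29.9 and 17.2 CPM in knockouts. Neither overlapped. Leprotl1, the neighbour of Saraf on chromosome 8, stood at 168, 289, 288 and 285 CPM in controls and 163, 104, 158 and 77.2 CPM in knockouts. Foxj2, a forkhead factor, stood at 31.7, 60.5, 50.8 and 49.2 CPM in controls and 31.2, 12.9, 16.6 and 6.58 CPM in knockouts. For Leprotl1 and Foxj2 the closest values were those of line 1 of each genotype, which almost met. In the Senexin B libraries Leprotl1 stood at 293, 121, 117 and 119 CPM in controls and 349, 91.03, 98.9 and 79.99 CPM in knockouts, with line 1 the highest of its genotype. Foxj2 stood there at 44.8, 35.8, 35.5 and 25.8 CPM in controls and 53.2, 12.1, 14.1 and 8.28 CPM in knockouts.

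The amino acid stress response, which the factor ATF4 switches on when cells lack amino acids or carry misfolded protein, was the list with the lowest median. Of 31 members, all tested, 30 were lower and 1 was higher in knockouts, with a median log2 fold change of -0.68 beside 0.0017 over all tested genes. By edgeR none was called, 10 were over 2-fold lower and 8 had an unadjusted p under 0.05. Ddit3 was the member that did not overlap, and 1 of 31 is close to the 3.08% of all genes. Nupr1, a stress-induced nuclear protein, stood at 50.3, 94.3, 125 and 171 CPM in controls and 35.7, 41.3, 57.1 and 6.96 CPM in knockouts. Sesn2, which restrains mTORC1 when leucine is short, stood at 50.3, 166, 119 and 120.5 CPM in controls and 47.6, 54.5, 86.5 and 28.4 CPM in knockouts. Control line 1 was the lowest control for each, and knockout line 4 the lowest of all. Shmt2, a mitochondrial enzyme of serine and folate metabolism, had a log2 fold change of -0.64 (SE 0.20). The other 4 members with an unadjusted p under 0.05 were Slc3a2, Slc7a5, Mthfd2 and Eif4ebp1, which were named after their values were seen.

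Line by line, the mean log2(CPM + 1) of the 31 members was 6.76, 7.82, 7.94 and 7.78 in control lines 1 to 4 and 6.995, 7.10, 7.16 and 5.94 in knockout lines 1 to 4. Control lines 2 to 4 were above every knockout line, and control line 1 was below 3 of the 4. The median log2 fold change was -0.91 without control line 1 and -0.53 without knockout line 4. In the Senexin B libraries, scaled separately, the means were 7.78, 6.95, 6.45 and 6.78 in control lines and 7.79, 7.49, 6.56 and 6.01 in knockout lines, with 17 members higher in knockouts and 14 lower. Line 1 was the low control in DMSO and the high control with the inhibitor. What moved line 1 was not tested.

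Some promoters of the list carry a sequence that ATF4 and its partners bind, the C/EBP-ATF response element, searched as TGATGNAA on both strands. In RefSeq promoter windows of GRCm38.p6, running from 250 bases before to 50 bases after a start site, the letters were found in 9 of 26 windows that belong to 23 of the members (34.6%), and in 3.97% of all 32851 windows. Since the list was made of genes of the ATF4 response, this share describes the list and not the genotype difference. Trib3, which encodes a pseudokinase that dampens ATF4 and CHOP, and Chac1, a glutathione-degrading enzyme, are printed as examples picked for holding the element, with the match in capitals. Trib3 stood at 85.3, 152, 161 and 356 CPM in controls and 126, 87.99, 99.9 and 12.03 CPM in knockouts, and Chac1 at 23.7, 42.4, 36.95 and 88.9 CPM in controls and 30.5, 25.7, 43.8 and 19.3 CPM in knockouts. Both overlapped. The Trib3 window is chr2:152344011-152344310 on the minus strand and the Chac1 window chr2:119350992-119351291 on the plus strand.
Trib3: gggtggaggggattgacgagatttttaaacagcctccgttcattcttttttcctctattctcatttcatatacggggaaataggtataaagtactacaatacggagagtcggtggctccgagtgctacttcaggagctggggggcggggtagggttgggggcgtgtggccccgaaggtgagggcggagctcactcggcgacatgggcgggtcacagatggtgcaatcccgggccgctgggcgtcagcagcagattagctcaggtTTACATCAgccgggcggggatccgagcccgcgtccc
Chac1: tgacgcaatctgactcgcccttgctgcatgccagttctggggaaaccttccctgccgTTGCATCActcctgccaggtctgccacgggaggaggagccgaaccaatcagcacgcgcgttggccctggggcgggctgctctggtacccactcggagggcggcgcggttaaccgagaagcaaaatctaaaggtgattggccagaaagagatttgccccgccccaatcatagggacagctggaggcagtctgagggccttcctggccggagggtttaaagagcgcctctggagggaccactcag

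The unfolded protein response raises the folding capacity of the endoplasmic reticulum, and its list shares Ddit3 with the ATF4 list. Of its 26 members, 19 were higher and 7 lower in knockouts, with a median log2 fold change of 0.17 and 0 called by edgeR. The 5 members that were higher at an unadjusted p under 0.05 were the chaperones and folding factors Hspa5, Calr, Pdia3, Sdf2l1 and Creld2, some of them named after their values were seen. The 2 that were lower and did not overlap were Ddit3 and Edem1, which sends misfolded proteins to degradation, beside 1.57% of all tested genes. Calr, the calcium-binding chaperone calreticulin, stood at 339, 380.5, 334 and 264 CPM in controls and 660.1, 494, 350 and 776 CPM in knockouts. Hspa5, the chaperone BiP, stood at 213, 321, 285 and 176 CPM in controls and 444, 338, 245 and 573 CPM in knockouts. For both, knockout line 3 lay among the controls. Sdf2l1, a co-chaperone of BiP, had a log2 fold change of 0.93 (SE 0.32). Without control line 2 the median of the list was 0.36.

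The endoplasmic reticulum stress element, searched as CCAAT and CCACG with 9 bases between them on both strands, was found in 9 of 23 windows of 22 members (39.1%) and in 0.119% of all windows. This share too describes how the list was made and not the genotype difference. The Hspa5 and Calr windows, picked for holding it, are printed with each match in capitals. They lie at chr2:34771840-34772139 on the plus strand and chr8:84846882-84847181 on the minus strand.
Hspa5: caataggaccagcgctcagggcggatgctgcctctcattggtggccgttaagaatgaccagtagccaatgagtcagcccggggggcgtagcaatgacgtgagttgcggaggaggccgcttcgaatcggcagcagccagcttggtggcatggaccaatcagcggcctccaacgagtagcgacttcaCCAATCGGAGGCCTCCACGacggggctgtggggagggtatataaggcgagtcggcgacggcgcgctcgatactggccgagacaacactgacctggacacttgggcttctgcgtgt
Calr: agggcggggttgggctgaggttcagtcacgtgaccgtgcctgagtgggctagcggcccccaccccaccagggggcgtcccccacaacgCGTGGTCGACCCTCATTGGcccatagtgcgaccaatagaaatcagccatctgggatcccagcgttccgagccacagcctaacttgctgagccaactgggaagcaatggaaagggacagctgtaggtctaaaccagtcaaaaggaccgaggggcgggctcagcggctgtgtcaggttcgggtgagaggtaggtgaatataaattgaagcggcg

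Of 11 tested heat shock genes, which encode chaperones of the cytosol, 7 were higher and 4 lower, with a median log2 fold change of 0.16. The 3 with an unadjusted p under 0.05 were all higher. Hspa8, the constitutive HSP70, stood at 270, 162, 139 and 199 CPM in controls and 296, 261, 309.8 and 355 CPM in knockouts. Hsph1, its exchange factor, stood at 47.1, 36.2, 34.5 and 32.5 CPM in controls and 50.5, 59.9, 41.9 and 70.8 CPM in knockouts. Hsp90aa1, the inducible HSP90, stood at 56.8, 39.98, 35.4 and 80.2 CPM in controls and 80.8, 68.9, 74.8 and 104 CPM in knockouts. Control line 1 was the highest control for Hspa8 and Hsph1 and control line 4 for Hsp90aa1. The median of the list ran from 0.09 without knockout line 4 to 0.42 without control line 1.

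Cholesterol synthesis genes, which SREBP2 switches on when sterols run low, were higher in 22 of 24 tested members and lower in 2, with a median log2 fold change of 0.38 and 0 called by edgeR. Hmgcs1, an early enzyme of the pathway, stood at 64.6, 64.2, 69.3 and 52.95 CPM in controls and 123, 105, 46.4 and 147 CPM in knockouts. Sqle, squalene epoxidase, stood at 134, 163, 155 and 124 CPM in controls and 365, 239.9, 121 and 233 CPM in knockouts. Acat2, a thiolase, stood at 24.1, 19.5, 24.8 and 21.9 CPM in controls and 46.3, 42.5, 23.03 and 55 CPM in knockouts. In each, knockout lines 1, 2 and 4 exceeded all controls and knockout line 3 did not. No member was without overlap, and the median ran from 0.255 without knockout line 4 to 0.56 without knockout line 3. In the Senexin B libraries 1 member was higher in knockouts and 23 were lower, with a median of -0.37. The difference between treatments was not tested for this list.

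**Figure D3:**
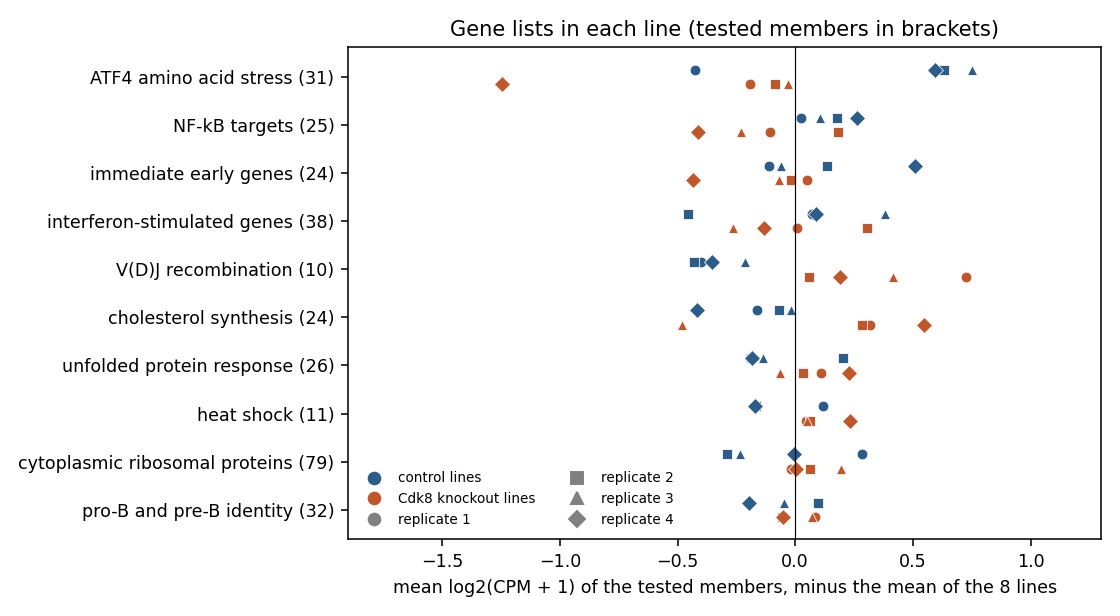
Mean log2(CPM + 1) of the tested members of 10 gene lists in each line, minus the mean of the 8 lines (horizontal axis). Blue points are control lines and orange points knockout lines, with the shape giving the replicate number. The ATF4 list has 3 controls to the right and control line 1 among the knockouts, and knockout line 3 is the leftmost point of the cholesterol list.

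Immune signalling lists had members on both sides. Of 38 tested interferon-stimulated genes, 18 were higher and 20 lower, with a median log2 fold change of -0.01, and 3 were higher without overlap, beside 1.51% of all tested genes. The median ran from -0.13 without control line 2 to 0.15 without control line 3. Psmb9, a subunit of the immunoproteasome that cuts peptides for MHC class I, stood at 68.4, 66.6, 75.2 and 69.4 CPM in controls and 83.5, 88.9, 89.9 and 104 CPM in knockouts, a log2 fold change of 0.39 (SE 0.11). Gbp7 and Irgm1, GTPases that act against intracellular pathogens, had log2 fold changes of 0.35 (SE 0.11) and 0.23 (SE 0.09). Oas3, a sensor of double-stranded RNA, overlapped, at 3.47, 0.257, 3.79 and 4.002 CPM in controls and 0.5702, 0.5802, 0.519 and 0.832 CPM in knockouts, with control line 2 below all knockouts. None of the list was called by edgeR.

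Of 25 tested NF-kB targets, 6 were higher and 19 lower, with a median log2 fold change of -0.21 that ran from -0.34 without knockout line 2 to -0.10 without control line 4. Rel, an NF-kB subunit, stood at 160, 126, 102 and 215 CPM in controls and at 88.3, 83.9, 89.3 and 88.6 CPM in knockouts, a log2 fold change of -0.78 (SE 0.21). The knockout lines were nearly equal and all below the controls. Rel was the 1 of 25 members without overlap (4%), beside 3.08% of all tested genes. Of 24 tested immediate early genes, 7 were higher and 17 lower, with a median of -0.26 that ran from -0.46 without knockout line 2 to -0.06 without control line 4. Egr1, a zinc finger factor induced by growth signals, stood at 219.9, 408, 143 and 577 CPM in controls and 101, 86.4, 208 and 141 CPM in knockouts, with overlap. Ier2 did not overlap, at 88.7, 103, 87.9 and 194 CPM in controls and 77.3, 68.5, 75.6 and 81.4 CPM in knockouts. It was the 1 of 24 members without overlap (4.17%), beside the same 3.08%. Fosb, an AP-1 subunit, was higher on average, at 8.41, 7.52, 18.8 and 8.65 CPM in controls and 66.6, 36.9, 34.3 and 9.46 CPM in knockouts, where knockout line 4 lay within the control range. No gene of either list was called by edgeR.

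Lists of growth and survival had medians near 0. Of 79 cytoplasmic ribosomal protein genes, 63 were higher and 16 lower with a median log2 fold change of 0.11, which ran from 0.02 without control line 2 to 0.26 without control line 1. Of 36 ribosome biogenesis genes 28 were higher with a median of 0.08, from -0.01 without knockout line 4 to 0.19 without knockout line 1. Of 36 genes of G2/M and mitosis 27 were higher with a median of 0.10, from 0.04 without control line 4 to 0.17 without knockout line 2. The 42 E2F and DNA replication genes were split, 22 higher and 20 lower, with a median of 0.01. Of 36 tested mTOR components 16 were higher and 20 lower, and of 29 PI3K and AKT components 14 were higher and 15 lower. Of 17 STAT5 targets and feedback genes, 6 were higher and 11 lower, with a median of -0.17, from -0.25 without knockout line 3 to -0.07 without knockout line 4. Among 25 tested p53 targets, 11 were higher and 14 lower with a median of -0.06, from -0.26 without knockout line 4 to -0.04 without control line 2. Cdkn1a, the cell cycle inhibitor p21, stood at 165, 162, 105 and 243 CPM in controls and 67.2, 120.1, 83.8 and 122 CPM in knockouts, with overlap. Of the 34 tested genes of glycolysis and hypoxia, 18 were higher and 16 lower, with a median of 0.05 that became -0.12 without control line 1 and -0.11 without knockout line 1. Ddit4, a hypoxia-induced inhibitor of mTORC1, was lower without overlap, at 71.7, 136, 85.1 and 118 CPM in controls and 59.8, 61.4, 55.2 and 40.9 CPM in knockouts. Epas1, the hypoxia factor HIF-2 alpha, was higher without overlap but scarce, at 1.06, 0.771, 0.385 and 1.43 CPM in controls and 2.34, 1.93, 2.401 and 3.18 CPM in knockouts. In the glycolysis and hypoxia list 2 genes were higher and 1 lower without overlap (8.82%), beside 3.08% of all tested genes. No gene of these lists was called by edgeR.

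Whole chromosomes also differed between lines. For 8769 genes with a mean of at least 10 CPM, each gene's median over the 8 lines was subtracted and the median of the differences taken per chromosome. On 15 chromosomes every line stayed between -0.09 and 0.06 on this log2 scale. On 5 chromosomes at least 1 line passed 0.2 in either direction. Control line 1 stood at 0.40 on chromosome 10, control line 2 at -0.41 on chromosome 12 and 0.51 on chromosome X, and control line 3 at -0.81 on chromosome 12 and 0.47 on chromosome 18. Knockout line 2 stood at -0.33 on chromosome 13, while control line 4 and knockout lines 1, 3 and 4 passed the limit nowhere. In the Senexin B libraries these stood, in the same order, at 0.48, -0.38, 0.45, -0.77, 0.47 and -0.34, and knockout line 3 stood at -0.24 on chromosome 13.

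Within chromosomes the shifts had borders. In windows of 20 Mb, control line 3 was low along all of chromosome 12, from -0.91 to -0.72. Control line 2 was at 0.41 and 0.48 in the first 40 Mb of that chromosome and between -0.61 and -0.52 from there on. Knockout line 2 was low on chromosome 13 from 0 to 40 Mb, at -0.77 and -0.65, and again from 80 to 120 Mb, at -0.29 and -0.68. Knockout line 3 was low from 0 to 60 Mb, between -0.79 and -0.76, and near 0 beyond. On chromosome X, control line 2 was near 0 up to 60 Mb and between 0.57 and 0.76 after it. DNA was not measured in these libraries, so copy number and other sources of such a shift cannot be told apart.

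**Figure D4:**
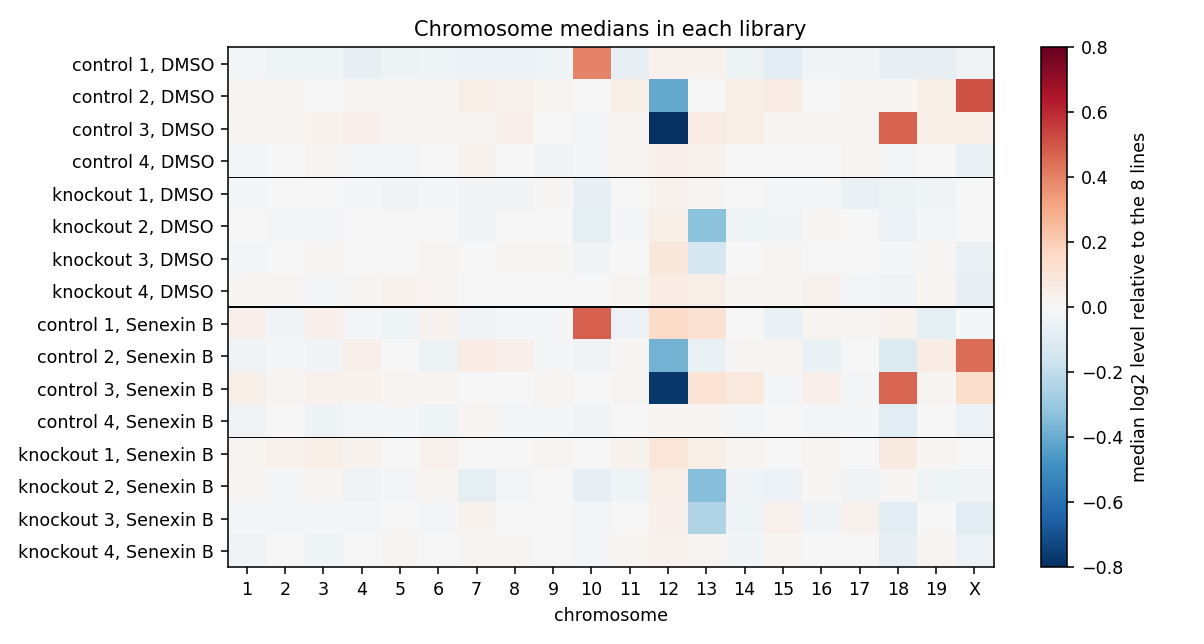
Median log2 level of the genes on each chromosome (horizontal axis) relative to the 8 lines of the same treatment, for the 16 libraries (vertical axis). Red is higher and blue lower, and the colour scale is cut at 0.8. Chromosomes 10, 12, 13, 18 and X hold the shifted lines, and knockout line 3 on chromosome 13 is past 0.2 with Senexin B (-0.24) but not in DMSO (-0.14).

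Together the 5 shifted chromosomes held 83 genes without overlap of 2388 tested (3.48%), beside 321 of 10760 (2.98%) on the other 15, where the share per chromosome ran from 2.13% to 4.37%. On chromosome 10, of 656 tested genes 36 were lower without overlap and 1 was higher, and the median log2 fold change was -0.13. On chromosome 12, of 463 tested genes 15 were higher without overlap and 2 lower, with a median of 0.29. The share was 5.64% on chromosome 10, 3.67% on chromosome 12, 1.95% on chromosome 13, 3.46% on chromosome 18 and 1.82% on chromosome X. After each line's chromosome medians were subtracted, the counts became 10 higher and 12 lower on chromosome 10 and 3 higher and 14 lower on chromosome 12, with 406 genes in all as before. Ddit3 on chromosome 10 and Actn1 on chromosome 12 still did not overlap, while Ddit4, also on chromosome 10, then did. For Actn1 the subtraction could hardly decide this. Its closest control was line 4 at 38.6 CPM, which stood at 0.04 on chromosome 12. The shifted control lines 2 and 3 held 16.2 and 8.19 CPM, against 51.6 CPM in the lowest knockout line. Kif3c on chromosome 12 did not overlap either, but the subtraction could not have changed this. Kif3c was lower in knockouts, and the subtraction raised control lines 2 and 3 there. It also lies in the first 20 Mb, where control line 2 stood at 0.41, against -0.41 for the whole chromosome. The ATF4 list without its members on the 5 chromosomes had 26 of 26 members lower and a median of -0.71.

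Lines of one genotype correlated over about the same range as lines of different genotypes. Over the tested genes, Pearson's r of log2(CPM + 1) between libraries ran from 0.940 to 0.965 for the 6 pairs of control lines, from 0.926 to 0.967 for the 6 pairs of knockout lines and from 0.927 to 0.961 for the 16 mixed pairs. Among 8778 genes with a mean of at least 10 CPM, the median SD between lines was 0.26 in controls and 0.23 in knockouts on the log2 scale. The median size of edgeR's log2 fold change was 0.16. It compares groups of 4 lines, so it cannot be set directly against an SD of single lines. The lines of a genotype spanned over 4-fold for 497 of these genes in controls and 570 in knockouts, and 326 were in both counts. The first 3 principal components held 26.4%, 21.2% and 16.5% of the variance. On the first, knockout lines 2 and 4 were the extremes at -31.3 and 43.1, with the controls between -18.9 and 24.3. Knockout line 4 and control line 4 stood alone most often on the low side, by over 2-fold below the other 3 lines of their genotype for 188 and 167 genes.

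Among the genes with the widest range, some were abundant in certain lines and almost silent in others of the same genotype. Lhx2, a homeobox factor, stood at 17.6, 618, 12.8 and 0.429 CPM in controls and 169, 10.9, 0.584 and 0.0757 CPM in knockouts. Gldc, the glycine decarboxylase, stood at 0.471, 36.2, 307 and 0.572 CPM in controls and 0.1901, 51.1, 40.9 and 0.454 CPM in knockouts. High and low lines stood side by side in each genotype. Aldh1a7, an aldehyde dehydrogenase, stood at 40.8, 4.69, 2.31 and 3.502 CPM in controls and 0.127, 0.709, 103 and 334 CPM in knockouts. Rtn1, a reticulon, stood at 1.06, 5.53, 5.72 and 8.65 CPM in controls and 2.79, 0, 76.95 and 265 CPM in knockouts, and Sox6, an HMG-box factor, at 0.589, 4.11, 13.4 and 4.57 CPM in controls and 1.901, 0.645, 38.02 and 262 CPM in knockouts. Knockout lines 3 and 4 were the highest for all 3. Xist, the RNA that silences an X chromosome in female cells, stood at 1.59, 2812, 1.43 and 1.36 CPM in controls and 156, 5239, 1.04 and 1.06 CPM in knockouts. The Y-linked Ddx3y stood at 41.7, 0, 24.6 and 48.5 CPM in controls and 33.1, 0.0645, 0.0649 and 33.3 CPM in knockouts, so the lines differed in these genes within each genotype. Leaving out X and Y genes left 1 gene called among 12730.

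**Figure D5:**
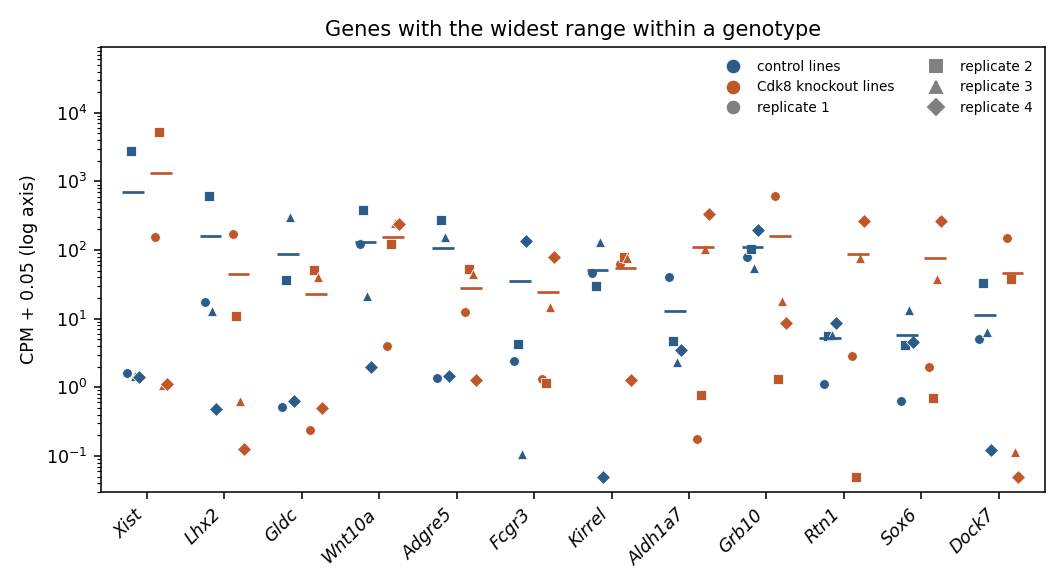
CPM plus 0.05 on a log axis for 12 of the genes with the widest range within a genotype, in control lines (blue) and Cdk8 knockout lines (orange), with the mean of 4 lines as a bar. Lhx2 and Gldc have high and low lines in both genotypes, and the genotypes overlap in all 12 genes.

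The Senexin B libraries of the same 8 lines give the genotype difference again in the same cells, without being independent of it. There, 138 of the 13174 genes did not overlap (1.05%), and 25 genes lay on the same side without overlap in both treatments. These included Sva, Nradd, Lpcat4, Nkain1, Nefh, Guca1a, Slc15a2 and Neurl1b. Lpcat4 stood between 11.6 and 26.6 CPM in controls with Senexin B and between 32.2 and 63.5 CPM in knockouts. Guca1a stood between 1.63 and 5.87 CPM in controls and between 7.27 and 15.04 CPM in knockouts. Nkain1, which interacts with the sodium pump, stood in DMSO at 0.235, 0.129, 0.385 and 0.643 CPM in controls and 2.22, 2.45, 0.908 and 1.59 CPM in knockouts. Rag1 overlapped with Senexin B, at 1.198, 2.65, 11.3 and 13.3 CPM in controls and 4.02, 16.5, 122 and 61.9 CPM in knockouts, where knockout line 1 lay within the control range. Ddit3 overlapped as well, at 517, 54.9, 35.2 and 59.9 CPM in controls and 294, 131, 59.7 and 33.8 CPM in knockouts.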

How the data were processed

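Libraries were made with a kit for polyadenylated RNA and sequenced as 50 bp single reads. The authors aligned the reads to GRCm38 with STAR and counted them without strand over GENCODE M13 genes with featureCounts 1.5.1, and the deposited values are raw counts per gene. Because strand was not used, reads of overlapping or antisense genes cannot be told apart. Of the 16 file headers, 15 name a folder of modified alignments and 1, of control line 1 in DMSO, does not; what was modified is not given in the sources used here.

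Of 50686 gene identifiers, 50376 have a symbol and 310 do not. Total counts ran from 13700307 to 17731914 in the 8 DMSO libraries. Genes were kept by filterByExpr, scaled by TMM and tested with the robust quasi-likelihood test of edgeR 4.0.16 in R 4.3.3, with Benjamini-Hochberg adjustment over all genes tested, no covariates, and limits of 0.05 and 2-fold. Group labels come from the sample titles. The p-values measure the spread between these lines. CPM of the Senexin B libraries were scaled over those libraries alone, and log2 levels use a pseudocount of 1. DESeq2 1.42.0, other size factors, filters, gene sets left out, the replicate number as a block and each library left out were run as alternatives.

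Genes were named if they were Cdk8, were called by edgeR or DESeq2, were among the 15 smallest p in each direction without overlap, over 2-fold and at 1 CPM or more, were among the 4 smallest p of a gene list, or were among the 8 widest ranges of a genotype at 10 CPM or more. Predicted genes, pseudogenes and antigen receptor segments were counted only in the parts for calls by DESeq2, lack of overlap and range. The members and lists were chosen with earlier results of these data known. Alternatives on shifted chromosomes (limit 0.2) were added after seeing the data. The test was checked on simulated counts before use. These were drawn for each gene independently, so the check does not cover shifts shared by many genes of a line.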

Additional observations from a re-analysis of the deposited data

Results flagged for a closer look

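In groups of 4 lines, the gap between the most extreme line and its nearest neighbour was divided by the range of the group. The 95% critical value of Dixon's test was exceeded in 15 of 148 groups. Chance alone exceeds it in about 1 of 20 groups that are not picked by their values. Many of these groups were picked for a wide range, lack of overlap or a shifted line, so the count cannot be set against that rate. On log2(CPM + 1), control line 1 stood apart as the lowest control for Leprotl1 (0.975) and Rrm2b (0.909) and as the highest for Cd93 (0.830). Control line 2 was the highest control for Gbp7 (0.845) and Xist (0.987) and the lowest for Oas3 (0.919). Control line 3 was the highest control for Fosb (0.852), and knockout line 3 the highest knockout for Shmt2 (0.862). In the mean over a list, control line 1 was the lowest control for ATF4 genes (0.865) and the highest for heat shock genes (0.991). Knockout line 4 was the lowest knockout for ATF4 genes (0.866) and the highest for heat shock genes (0.909). Control line 2 was the highest control for the unfolded protein response (0.867). Among chromosome medians, control line 1 stood apart on chromosome 10 (0.955) and control line 3 on chromosome 18 (0.846).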

How the results depend on the processing

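The count of 1 called gene became 32 with DESeq2 (55 at an adjusted p under 0.1, 1010 at an unadjusted p under 0.05), 0 in edgeR when 10 counts were required in every library (652 genes at an unadjusted p under 0.05) and 0 with the replicate number as a block (542). It was 0 to 0 when each library was left out in turn, where edgeR gave 487 to 1420 genes an unadjusted p under 0.05, the highest count without control line 1. It stayed at 1 under the other size factors, without a filter, with all 16 libraries, with both libraries of each line summed, and without X and Y, antigen receptor or shifted-chromosome genes. The count of 406 genes without overlap (3.08% of 13174) was 138 in the Senexin B libraries (1.05%). Without the shifted chromosomes it was 323 of 10786 genes (2.995%). This set includes Y-linked and mitochondrial genes, which the count over the other 15 chromosomes left out. With the block, the adjusted p of Sva in edgeR's test was 0.962. In DMSO the replicate numbers did not pair the lines. Deviations of same-numbered libraries correlated at -0.14 to 0.26 and those of different numbers at -0.30 to 0.30. Of the 8 libraries, 2 correlated best with their own number. The Senexin B libraries were not part of this check. There, line 1 was the highest of both genotypes for Ddit3, Leprotl1 and Foxj2, and whether the numbers pair lines was not tested. Of 732 values of single genes under alternatives, 704 kept direction and side of the limits, 9 lost a call, 15 gained one and 4 changed sign: Xist, whose log2 fold change ran from -3.73 without knockout line 2 to 9.83 without control line 2, Lhx2, from -5.38 without knockout line 1 to 2.13 without control line 2, Gldc, from -2.64 without knockout line 2 to 0.89 without control line 3, and Fcgr3, from -2.65 without knockout line 4 to 3.45 without control line 4. Of 431 list medians, 12 moved by more than the spread between lines. The causes were not tested. With 4 lines a group, depth limits scarce genes such as Sva, Nkain1 and Epas1, and counting error covers reads only.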
